A study of Homo sapiens with 3 samples.

Results

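Cells of a drug-resistant derivative of the FaDu line were compared with FaDu cells, both grown with cinobufotalin. All cells of the 2 libraries were taken that held 1000 or more unique molecular identifiers (UMIs, each the count of 1 captured RNA molecule) and 500 or more genes, with no more than 20% of UMIs from mitochondrial genes, which left 13648 of the 18510 kept cells of the series, 6123 of them FaDu and 7525 resistant. FaDu (Fadu in the labels) is an established human line from a squamous carcinoma of the hypopharynx. The FaDu cinobufotalin library held FaDu cells given cinobufotalin alone, a bufadienolide steroid found in toad venom. TPF is taken here as a taxane, paclitaxel, with cisplatin and 5-fluorouracil, but the sample titles do not name the drugs. The resistant TPF cinobufotalin library held a TPF-resistant FaDu line, and this line was given TPF together with cinobufotalin. The resistant TPF library, 4862 cells of that line given TPF without cinobufotalin, is used here for values set beside the pair. Doses, durations, and whether the resistant line was 1 clone or a pool are not stated in the labels. Line and TPF therefore differ together between the 2 libraries and cannot be told apart, and with 1 library in each group no difference has a replicate check and none was tested.

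Some background on the genes concerned is useful. Linker histones of the H1 family bind DNA where it enters and leaves the nucleosome, while the core histones form the nucleosome itself, and most of these genes sit in clusters and are transcribed in S phase. Their messages normally end in a stem-loop and carry no poly(A) tail, whereas the 3′ single-cell kit used here primes on poly(A) tails, so only polyadenylated or internally primed histone RNA would be captured. TXNIP binds and inhibits thioredoxin and lowers glucose uptake at the plasma membrane, and its paired CACGAG boxes are known as a carbohydrate response element bound by MondoA or ChREBP with Mlx. KRT5, KRT14 and KRT15 are the keratins of the basal layer of squamous epithelia. MALAT1 is a long noncoding RNA retained in the nucleus, so its share of a cell's UMIs can serve as a reading of how much nuclear RNA the cell's profile holds.

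The 120 bases before the start are shown for TXNIP and for 5 linker histone genes, because TXNIP and 4 of these 5 were among the genes with the largest differences and the other, HIST1H1C, was not. Sequences and starts are from RefSeq on GRCh38.p14, and each is written 5′ to 3′ on the strand of the gene. HIST1H1D covers chr6:26234988-26235107 (minus strand), HIST1H1E chr6:26156209-26156328 (plus), HIST1H1A chr6:26017788-26017907 (minus), HIST1H1B chr6:27867589-27867708 (minus) and HIST1H1C chr6:26056471-26056590 (minus). TXNIP covers chr1:145996580-145996699 (minus strand, the more upstream of 2 annotated starts). Capitals mark AAACACA, the H1 box, with CCAAT and TATAAA in the histone genes, and CCAAT and CACGAG in TXNIP, on either strand.
HIST1H1D: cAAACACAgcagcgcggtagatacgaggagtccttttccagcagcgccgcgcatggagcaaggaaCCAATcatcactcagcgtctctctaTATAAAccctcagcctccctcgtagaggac
HIST1H1E: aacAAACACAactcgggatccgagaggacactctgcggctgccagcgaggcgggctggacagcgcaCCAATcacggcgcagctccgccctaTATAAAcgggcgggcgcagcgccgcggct
HIST1H1A: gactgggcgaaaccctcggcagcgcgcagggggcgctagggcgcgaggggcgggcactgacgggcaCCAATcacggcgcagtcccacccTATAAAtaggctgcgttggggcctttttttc
HIST1H1B: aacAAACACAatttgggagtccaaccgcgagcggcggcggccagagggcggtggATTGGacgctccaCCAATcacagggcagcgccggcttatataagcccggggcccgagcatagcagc
HIST1H1C: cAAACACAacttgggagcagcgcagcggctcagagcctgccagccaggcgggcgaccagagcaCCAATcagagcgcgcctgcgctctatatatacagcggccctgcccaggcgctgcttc
TXNIP: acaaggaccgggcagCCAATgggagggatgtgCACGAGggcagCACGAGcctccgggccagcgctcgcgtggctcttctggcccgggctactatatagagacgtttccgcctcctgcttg
CCAAT stood 53 to 57 bases before the start in the histone stretches, with another copy on the opposite strand in HIST1H1B. AAACACA lay 117 to 119 bases before the start in 4 of the 5 and was not found in the HIST1H1A stretch, and TATAAA was not found in those of HIST1H1B and HIST1H1C. The 2 CACGAG copies of TXNIP began 88 and 77 bases before the start. HIST1H1C carried AAACACA and CCAAT, as did HIST1H1D, HIST1H1E and HIST1H1B.

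Among the genes called, the shares of promoters that held these letters differed from those of all genes by a few percentage points. The windows searched ran from 250 bases before the start to the start, on both strands, for 6444 of the 7958 genes measured in the matched cells described below, 206 of the 273 higher genes and 54 of the 79 lower genes. CCAAT was in 34.0% of 9377 windows of all these genes, 37.9% of 280 windows of the genes at least 2-fold higher and 34.2% of 76 windows of those at least 2-fold lower. AAACACA was in 2.66%, 3.21% and 1.32%, TATAAA in 6.07%, 7.5% and 9.21%, and TTTGAA, the core of the cell cycle homology region, in 9.17%, 13.2% and 13.2%. The E2F letters TTTCCCGC or TTTGGCGC were in 3.20%, 3.57% and 1.32%, the E-box CACGTG in 8.70%, 7.14% and 5.26%, and CACGAG in 7.07%, 6.79% and 6.58%. Several of these strings can occur by overlap with another in the same window, and a match describes letters only.

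The 2 libraries differed in depth and in nuclear RNA, so the gene values are given both over all kept cells and over cells matched on MALAT1. The median cell held 24440 UMIs in the FaDu cinobufotalin library and 17867 in the resistant TPF cinobufotalin library, with 165847771 and 134802289 UMIs in all. Ribosomal protein genes took 18.4% and 13.9% of the median cell's UMIs. MALAT1 ran from 0.00363% at the 10th percentile to 1.00% at the 90th in FaDu cells and from 0.0275% to 2.08% in resistant cells. When each cell was thinned to 5000 UMIs, the median number of genes was 1904 and 2176, and 144 FaDu and 571 resistant cells were too shallow for this. The cell barcode sequences of the 2 libraries coincided in 18 cases. All 11 squamous epithelial markers were measured, while none of 10 fibroblast and none of 14 immune markers reached a mean of 5 CPM (counts per 1e+06 UMIs), and of the endothelial and erythroid lists only ERG and HBA1 did. The summed CPM in FaDu and resistant cells were 3.497 and 7.225 for fibroblast, 7.84 and 6.24 for immune, 15.1 and 32.3 for endothelial and 5.81 and 9.62 for erythroid markers, and their part in the results was not tested. For scale, no immune marker had a UMI in more than 2.24% of thinned FaDu cells or 1.71% of resistant cells. No cell type in these cultures should lack the genes described below, so the share of cells that free RNA alone would give was not measured.

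Fewer genes were higher in the resistant cells once cells were matched on MALAT1, while slightly more were lower. The matched set also had a higher UMI minimum and a narrower mitochondrial range. Over all kept cells, 1002 of 7911 genes with a mean of 10 CPM or more were higher by 2-fold or more in the resistant TPF cinobufotalin library (12.7%) and 64 were lower by as much (0.809%). In 2150 cells of each library drawn to equal numbers in 8 classes of MALAT1 share, from cells with at least 10000 UMIs and 2% to 8% mitochondrial UMIs, 273 of 7958 genes were higher (3.43%) and 79 lower (0.993%). Of the genes higher over all kept cells 24.35% were also higher in the matched cells, and of those lower 84.38% were also lower. Median MALAT1 was 0.389% in matched FaDu and 0.411% in matched resistant cells, whose median UMIs were 23823 and 20103 and whose ribosomal protein shares were 17.5% and 14.8%. The part of this remaining gap in ribosomal protein share in the results was not tested. Below, a log2 ratio divides the CPM of the resistant TPF cinobufotalin cells by that of the FaDu cinobufotalin cells, in matched cells unless all kept cells are named, and brackets hold 95% exact intervals for counting error only.

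**Figure D1:**
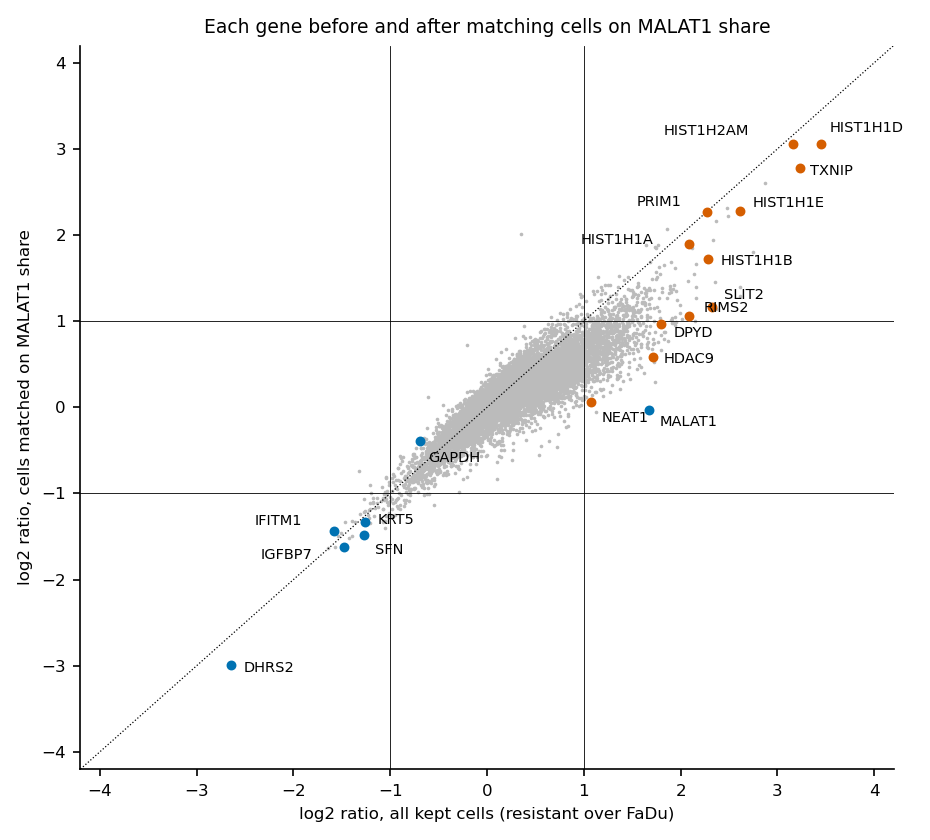
Each point is a gene with a mean of at least 10 CPM in both settings, with the log2 ratio (resistant TPF cinobufotalin over FaDu cinobufotalin) over all kept cells on the x axis and over cells matched on MALAT1 on the y axis; solid lines mark 2-fold and the dotted line equality. TXNIP (3.23 to 2.78) and HIST1H1D (3.45 to 3.06) lie just below the diagonal, while MALAT1 (1.68 to -0.03), NEAT1 (1.07 to 0.07) and HDAC9 (1.72 to 0.59) lie far below it.

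The median gene stood at 0.29 over all kept cells and 0.17 in matched cells. With TMM scaling, which assumes that most genes do not differ, the median gene stood at -0.24 and -0.05, and 164 genes were higher and 514 lower over all kept cells, or 24.19% higher against 94% on the CPM scale. In matched cells TMM gave 112 higher and 198 lower, or 36.13% higher against 77.56%. The balance of directions thus depended on the scaling, and each value below is best read against the median gene. TMM scaling shifts every ratio by the same amount, and here that shift was smaller than 2-fold. Genes called at 2-fold therefore keep their direction by construction. List medians and gene ratios given below for matched cells are marked where their sign turned. Counts of list members at 1.5-fold are to be read against all 10169 genes with a mean of at least 5 CPM. Of these 18.5% were higher and 5.23% lower.

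TXNIP was higher in both libraries of the resistant line and was found in many more of their cells. It was at 18.2 CPM in the FaDu cinobufotalin library, 167 CPM in the resistant TPF library and 171 CPM in the resistant TPF cinobufotalin library. In matched cells it was at 21.7 and 148 CPM, a log2 ratio of 2.78 [2.68 to 2.87], or 6.84-fold. At 5000 UMIs per cell TXNIP was detected in 7.26% of FaDu cells (6.61% to 7.95%), 43.7% of resistant TPF cinobufotalin cells (42.5% to 44.8%) and 42.2% of resistant TPF cells. The unthinned shares were 23.0% and 69.8%. Among cells with a TXNIP UMI the mean was 1.41 UMIs in FaDu and 2.03 in resistant cells, a mean that cannot fall below 1 and so says little at such low counts. The gene lies at chr1:145992435-145996600.

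Its relative ARRDC4, an alpha-arrestin with the same known effect on glucose uptake, was at 4.49, 27.1 and 25.1 CPM in the same order, with a log2 ratio of 2.31. ARRDC1, an alpha-arrestin of vesicle budding, differed in the other direction at 83.1, 55.1 and 45.5 CPM and -0.91, but it overlaps an antisense gene, and the sources used here do not give whether counting used strand. Of the genes named below, MUS81, IGFBP7, ITGB4, HSPD1, DDIT3, PSME1, SLC16A3, TUBA1C, ATP1B1, ERCC1, CAV2 and HCFC1R1 also overlap a gene on the opposite strand and are uncertain in the same way. None of the 13 thioredoxin, glutaredoxin and peroxiredoxin genes was 1.5-fold higher or lower, against 18.5% and 5.23% of all 10169 genes with a mean of at least 5 CPM, and their median was 0.02 (-0.20 with TMM scaling). TXN itself, the partner that TXNIP inhibits, was at 0.28.

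**Figure D2:**
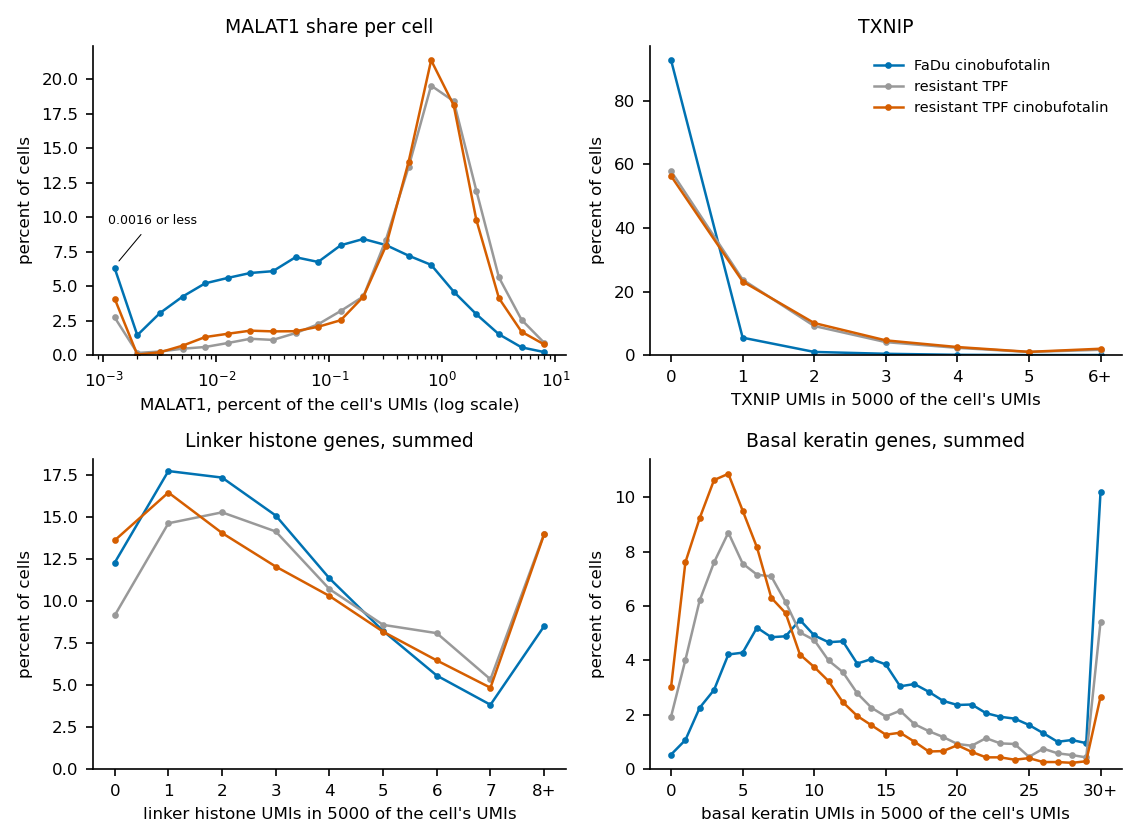
Percent of cells in each library at each MALAT1 share (log axis, the leftmost point collecting cells at the low end) and at each number of TXNIP, summed linker histone and summed basal keratin UMIs per 5000 UMIs of a cell. Cells without a TXNIP UMI make up 92.7% of FaDu (blue), 57.9% of resistant TPF (grey) and 56.3% of resistant TPF cinobufotalin cells (orange), and the basal keratin curves of the resistant line lie to the left of FaDu.

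Of 7 measured linker histone genes, 4 were higher by 1.5-fold or more and 2 were lower by that much, so the family was split. The shares of all genes were 18.5% and 5.23%, and with TMM scaling the family had 4 higher and 3 lower. HIST1H1D (H1.3; chr6:26234268-26234933) was at 13.1, 113 and 143 CPM in the FaDu cinobufotalin, resistant TPF and resistant TPF cinobufotalin libraries, and at 16.7 and 139 CPM in matched cells, a log2 ratio of 3.06 [2.95 to 3.16]. HIST1H1E (H1.4) was at 8.85, 46.1 and 54.2 CPM and at 2.28 [2.15 to 2.42] in matched cells. HIST1H1A (H1.1), an H1 gene active in few tissues, was at 34.0, 130 and 144 CPM and 1.90 [1.83 to 1.97]. HIST1H1B (H1.5) was at 14.9, 78.4 and 72.3 CPM and 1.72 [1.62 to 1.82]. In each of these 4 both libraries of the resistant line were above the FaDu library. HIST1H1C (H1.2) was at 46.5, 46.2 and 42.4 CPM and at -0.54, and the replication-independent linker histones H1F0 (H1.0) and H1FX (H1.10), which are polyadenylated, were lower at -1.15 and -0.77. The detected share at 5000 UMIs was 6.52% against 36.9% for HIST1H1D, 4.10% against 21.0% for HIST1H1E, 14.5% against 39.6% for HIST1H1A and 7.04% against 25.5% for HIST1H1B.

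Summed over the family, the per-cell counts were alike at their centre, but this sum adds members that differed in opposite directions. H1F0 (262 CPM) and H1FX (259 CPM) held most of the list's 637.7 CPM in FaDu. In the resistant TPF cinobufotalin library they were at 144 and 168 CPM of 768.1. The median was 3 linker histone UMIs per 5000 in both libraries and the 90th percentile 7 in FaDu and 9 in resistant cells. Cells with 8 or more such UMIs were 8.51% of FaDu, 14.02% of resistant TPF and 13.98% of resistant TPF cinobufotalin cells. Among the 21 measured core histone genes 11 passed 1.5-fold upward and 1 downward (6 and 1 with TMM scaling), against 18.5% and 5.23% of all genes. Their median was 0.59, over a range of -1.40 to 3.06. HIST1H2AM, an H2A gene, was the highest, at 4.63, 43.3 and 41.4 CPM and a log2 ratio of 3.06 [2.87 to 3.26], with detection at 1.99% and 17.6% of cells. HIST1H2AJ was at 1.26 and HIST1H2BF at 1.40. HIST1H4C, at 824, 988 and 1002 CPM, was at 0.07 (-0.15 with TMM scaling), and HIST3H2A, an H2A gene of a small separate cluster, was lower at 208, 124 and 101 CPM and -1.40. Clustered histone genes have near-identical coding sequences, and HIST1H2AM overlaps HIST1H3J on the same strand, so reads of single members could have been split or lost in counting.

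DNA replication, recombination and bypass genes were higher as groups. The 15 E2F factors and G1/S genes had a median of 1.15, against 0.18 for all genes at 5 CPM. Of these 15, 10 were higher by 1.5-fold or more and 0 lower, against 18.5% and 5.23% of all genes. With TMM scaling the counts were again 10 and 0. Among them E2F8, an E2F repressor, was at 6.55, 30.9 and 28.4 CPM and 1.85, CASP8AP2, which acts in histone gene transcription, at 1.42, cyclin E2 (CCNE2) at 1.41 and the chromatin ATPase ATAD2 at 1.22. ATAD2 was detected in 45.6% of thinned FaDu cells and 76.2% of resistant cells. E2F1 itself was at 0.48 and SLBP, which binds the histone stem-loop, at 0.12 (below 0 with TMM scaling).

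The list of 28 genes of homologous recombination and crosslink repair had 20 higher members and 0 lower, against 18.5% and 5.23% of all genes. With TMM scaling 14 were higher and 1 lower. The median of this list was 0.84. RAD50 of the MRE11 complex was at 3.58, 19.0 and 20.2 CPM and 2.22, while its partners NBN and MRE11 were at 0.67 and 0.59. BRCA2 was at 10.8, 51.3 and 48.3 CPM and 1.66 [1.54 to 1.78], its partner PALB2 at 1.44 and BRCA1 at 1.29. RAD51C (0.10) and the nuclease subunit MUS81 (-0.38) marked the low end, with RAD51C below 0 under TMM scaling. Translesion synthesis genes had a median of 0.79. Of the 10 measured, 8 were higher and 0 lower (5 and 0 with TMM scaling), against 18.5% and 5.23% of all genes. The fork remodeller HLTF was at 33.2, 85.1 and 90.1 CPM and 1.18, and REV3L, the catalytic subunit of polymerase zeta, was at 0.83 against 1.61 over all kept cells. PRKDC, the catalytic subunit of the DNA end-joining kinase, was at 96.2, 281 and 325 CPM and 1.51, with detection at 36.2% and 74.2%.

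Origin licensing and fork genes were higher by less. The 23 licensing genes had a median of 0.49 with 10 members higher by 1.5-fold or more, among them the GINS subunit GINS1 (1.17), the kinase CDC7 (1.03) and ORC6 of the origin recognition complex (0.86), and 0 lower. The 25 fork genes had a median of 0.45, with 8 higher and 0 lower. The DNA primase subunit PRIM1 was at 14.3, 68.0 and 69.3 CPM and 2.26 [2.15 to 2.38], and the primase partner POLA1 at 1.19, while PRIM2 was at 0.53, the sliding clamp PCNA at -0.27 and the polymerase delta subunit POLD2 at -0.38. PRIM1 overlaps NACA on the same strand, a gene at 2070 CPM in FaDu and 1318 CPM in resistant cells, so its level is uncertain, although NACA differed in the other direction. For 30 mitosis genes the median was 0.53, with 14 higher and 1 lower, against 18.5% and 5.23% of all genes. With TMM scaling the counts were 6 and 2 for mitosis, 5 and 0 for licensing and 6 and 1 for fork genes. CKAP2 (1.38), TPX2 (1.06), MKI67 (0.93) and the topoisomerase TOP2A (0.61) were at one end, and PLK1 (-0.59), the cyclin CCNB2 (-0.46) and the anaphase activator CDC20 (-0.36) at the other. Mitotic genes thus lay on both sides of the median gene.

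**Figure D3:**
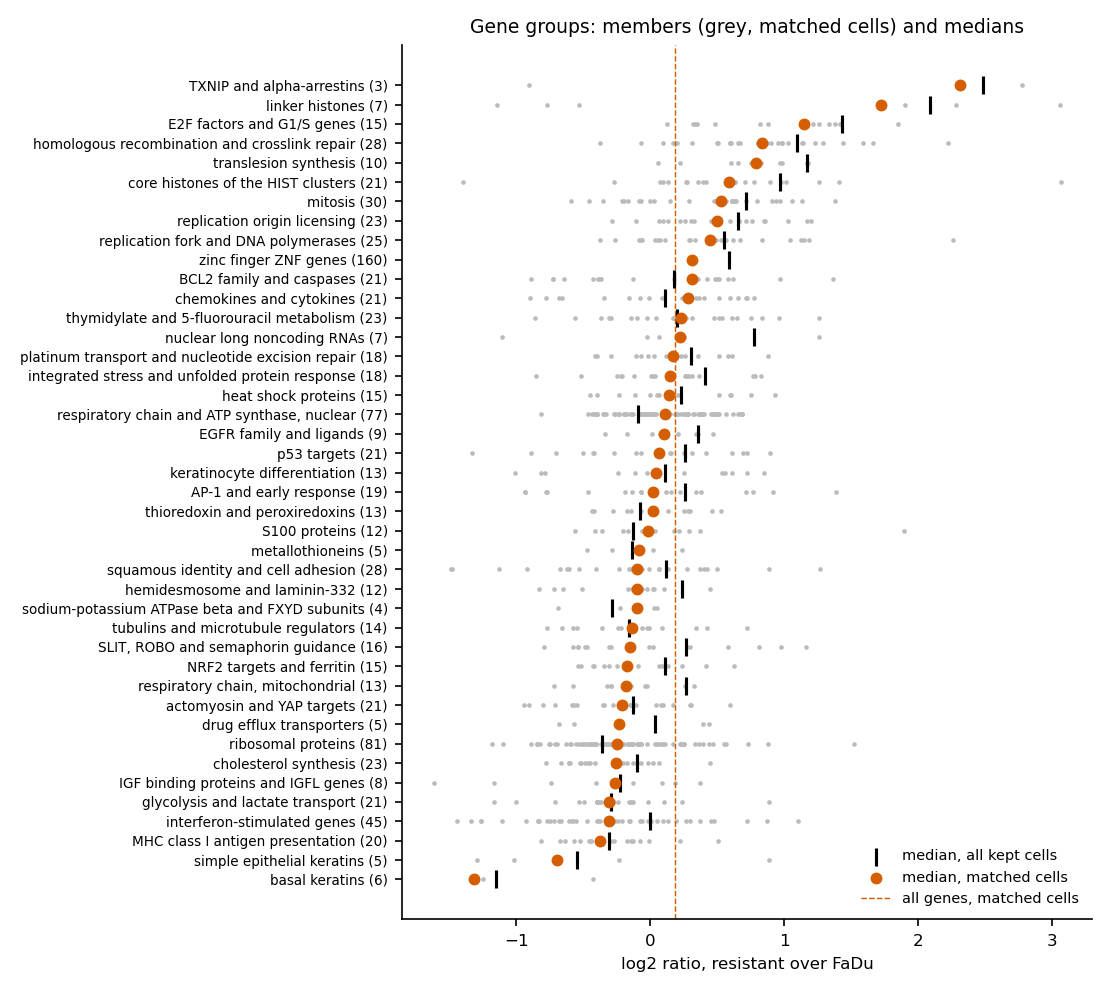
Log2 ratios of 42 gene lists in matched cells, with grey dots for measured members (not drawn for the ZNF list), orange dots for the list's median, black ticks for its median over all kept cells and a dashed line at 0.18, the median of all genes at 5 CPM. The linker histone, alpha-arrestin, E2F, recombination and translesion medians lie to the right of the line and the basal keratin median of -1.32 is the lowest of the lists drawn.

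Genes of the basal keratin list were lower in the resistant cells. This list was wider than the basal-layer keratins KRT5, KRT14 and KRT15, and also held KRT16 and KRT17. The median of 6 measured members was -1.32. Of them 5 were lower by 1.5-fold or more and 0 higher, against 5.23% and 18.5% of all genes. KRT5 (chr12:52514575-52520687) was at 150.5, 76.2 and 62.8 CPM in the FaDu cinobufotalin, resistant TPF and resistant TPF cinobufotalin libraries and at -1.33 [-1.39 to -1.27] in matched cells. Its partner KRT14 was at 110, 60.1 and 46.9 CPM and -1.25, KRT15 at 43.5, 16.7 and 15.7 CPM and -1.33, and KRT17, an injury keratin, at 2729, 1823 and 1298 CPM and -1.32. For these 4 keratins the resistant TPF cinobufotalin library was the lowest of the 3 libraries. KRT16 was at -0.43. Keratin genes have near-identical relatives, so reads of KRT6A (-1.32), KRT14, KRT16 and KRT17 could have been split in counting.

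KRT5 was detected in 44.6% of thinned FaDu cells (43.3% to 45.9%), 25.8% of resistant TPF cells and 22.5% of resistant TPF cinobufotalin cells (21.5% to 23.5%). Summed per cell, basal keratins took 13 UMIs per 5000 at the median of FaDu cells (10th to 90th percentile 4 to 30), 7 in resistant TPF cells and 5 in resistant TPF cinobufotalin cells (1 to 16). KRT17 made up 2729 of the list's 3084.5 CPM in FaDu, so this sum is mainly KRT17. Only 13.3% of the resistant TPF cinobufotalin cells lay above the FaDu median, so the sum was lower over most of the distribution. The simple epithelial keratins were mixed, with KRT19 (-1.29) and KRT8 (-1.02) lower and KRT7 higher at 524, 826 and 830 CPM and 0.89. KRT8 overlaps KRT18 (-0.23) on the opposite strand. KRT7 overlaps KRT86 on the same strand, a gene at 7.07 and 8.38 CPM.

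Squamous identity genes were lower in part. Of 28 squamous identity and adhesion genes 2 were higher and 7 lower (2 and 9 with TMM scaling), against 18.5% and 5.23% of all genes. Their median was -0.10 (0.12 over all kept cells). Summed per cell they took 23 UMIs per 5000 at the FaDu median, 19 in resistant TPF and 17 in resistant TPF cinobufotalin cells, of which 23.24% lay above the FaDu median. The 11 squamous epithelial markers, which share members with these lists, had 5 lower and 0 higher. The 14-3-3 protein SFN was at 1089, 601 and 452 CPM and -1.48 [-1.51 to -1.46], and 9.89% of resistant cells lay above the FaDu median of 5 UMIs per 5000. The surface protein LY6D was at -1.49, whereas desmocollin DSC2 was at 1.26 and E-cadherin (CDH1) at 0.42. TP63, the master regulator of squamous identity, was at 36.1, 45.2 and 44.4 CPM and -0.07, against 0.30 over all kept cells and -0.22 there with TMM scaling. Hemidesmosome and laminin-332 genes had a median of -0.10, with ITGA3 (-0.83), ITGB4 (-0.72) and COL17A1 (-0.65) lower and none higher. Of 13 keratinocyte differentiation genes 3 were higher and 3 lower, with a median of 0.04 (-0.18 with TMM scaling), and the kallikreins KLK5 (-0.82), KLK6 (-1.01) and KLK10 (-0.79) were the lower ones.

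Secreted factors included some of the genes farthest from the median in each direction. IL11, a cytokine of the IL-6 family, was at 32.4, 113 and 108 CPM and 1.86 [1.78 to 1.94], and STC1, a secreted glycoprotein hormone, was at 28.1, 83.2 and 94.5 CPM and 1.85 [1.76 to 1.93]. CCDC80, a secreted matrix protein, was at 1.69. IGFBP7, a binder of insulin-like growth factors, was at 49.6, 26.9 and 17.8 CPM and -1.62 [-1.74 to -1.50], and the stress cytokine GDF15 was at 149, 86.2 and 71.0 CPM and -1.33. Of 21 measured chemokines and cytokines 5 were higher, near the 18.5% of all genes, and 4 lower, against 5.23% of all genes, with a median of 0.28. With TMM scaling 0 were higher and 4 lower. CSF2 (0.71) and IL24 (0.59) were among the higher and IL18 (-0.90), IL1B (-0.78) and IL1A (-0.66) among the lower. The lowest named gene was DHRS2, a short-chain dehydrogenase, at 35.0, 8.84 and 5.62 CPM and -2.997 [-3.20 to -2.80]. It was detected in 6.02% of thinned FaDu cells, and its variance over cells was 9.05 times its mean there and 2.95 times in resistant cells, so its FaDu level came from a minority of cells with high counts.

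Interferon-stimulated genes were lower more often than higher. Of 45 measured members 3 were at least 1.5-fold higher and 15 lower, against 18.5% and 5.23% of all genes, with a median of -0.31 (-0.0070 over all kept cells). IFITM1 was at 165, 70.5 and 54.9 CPM and -1.44 [-1.51 to -1.38], with detection at 48.1%, 26.1% and 22.3% of thinned cells in the order FaDu, resistant TPF, resistant TPF cinobufotalin. IFITM1 overlaps IFITM2 on the same strand, so its level is uncertain. IFI35 was at -1.34, the tetherin gene BST2 at -1.26, IFIT1 at -1.26 and ISG15, a ubiquitin-like modifier, at -0.83. The ubiquitin ligase HERC5, which attaches ISG15, was higher at 85.0, 180 and 192 CPM and 1.10, as was the RNA sensor DDX58 (0.72). With TMM scaling 2 members were higher and 22 lower. Of 20 MHC class I antigen presentation genes none was 1.5-fold higher and 3 were lower, with a median of -0.37. These 3 were the proteasome genes PSMB10 (-0.81) and PSME1 (-0.67) and the peptide transporter TAP1 (-0.64). With TMM scaling 0 of this list were higher and 10 lower.

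Glycolysis and cholesterol synthesis genes lay below the median gene. Of 21 glycolysis and lactate transport genes 1 was higher and 3 lower, against 18.5% and 5.23% of all genes. Their median was -0.31, and with TMM scaling 1 was higher and 9 lower. The lactate exporter SLC16A3 was at -1.17, the glucose transporter SLC2A1 at -1.01 and hexokinase HK2 at -0.72, while the transporter SLC2A3 was at 0.89 from 4.21 CPM in FaDu. GAPDH was at -0.69 over all kept cells and -0.40 in matched cells. Of 23 cholesterol synthesis genes none was higher and 5 lower (11 with TMM scaling), with a median of -0.26 (-0.10 over all kept cells). Summed over this list, the CPM over all kept cells were close, at 745.5 in FaDu and 760.2 in resistant TPF cinobufotalin cells. Nuclear-encoded respiratory chain genes had a median of 0.11 with 5 of 77 higher, below the 18.5% of all genes, and 1 lower. The median was -0.09 over all kept cells, and with TMM scaling it was -0.11 with 0 higher and 7 lower. The 1 lower gene was ATP5F1D, a subunit of the ATP synthase, at 346, 154 and 168 CPM and -0.82, with detection at 77.4% and 51.1%. Of 81 ribosomal protein genes 3 were higher and 13 lower (2 and 27 with TMM scaling). RPS20 was at 734, 1714.0 and 1883.8 CPM and 1.52, and RPL10A at -1.18. The many pseudogene copies of these genes make single values uncertain.

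Early response and stress lists held genes on both sides of the median gene. The AP-1 subunit JUN was at 96.4, 387 and 338 CPM and 1.39, with detection at 29.3%, 67.5% and 65.5% of thinned cells in FaDu, resistant TPF and resistant TPF cinobufotalin libraries, and FOS was at 0.92. FOSL1 (-0.93) and JUNB (-0.77), other subunits of the same dimers, were lower. The 19 genes of the list had 4 higher and 4 lower, against 18.5% and 5.23% of all genes, so the share higher was near that of all genes. Their median was 0.02 (-0.20 with TMM scaling). Of 18 integrated stress and unfolded protein response genes 3 were higher, DDIT3 (0.82), HSPA5 (0.78) and ATF3 (0.76), and PHGDH (-0.85) was lower, so the share higher was near the 18.5% of all genes. With TMM scaling 1 was higher and 2 lower. The 15 heat shock genes had 4 higher and 0 lower members (1 and 2 with TMM scaling), with HSPH1 at 0.93 and the mitochondrial chaperonin HSPD1 at 0.75. The medians of the last 2 lists, 0.15 and 0.14, turned to -0.07 and -0.08 with TMM scaling.

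The groups tied to the drugs lay on both sides of the median gene. Of 23 thymidylate and 5-fluorouracil metabolism genes 6 were higher and 1 lower (3 and 2 with TMM scaling), against 18.5% and 5.23% of all genes. Their median was 0.23, near the 0.18 of all genes at 5 CPM. The ribonucleotide reductase subunit RRM1 was at 26.0, 64.8 and 67.9 CPM and 1.26, and the lower gene was cytidine deaminase CDA (-0.86). The 5-fluorouracil target TYMS was at 0.26, and it overlaps TYMSOS and ENOSF1 on the opposite strand. DPYD, which degrades 5-fluorouracil, was at 7.85, 28.5 and 27.3 CPM, with 1.80 over all kept cells and 0.96 in matched cells. Of 18 platinum transport and excision repair genes 2 passed 1.5-fold upward, below the 18.5% of all genes, and 0 downward. With TMM scaling 1 was higher and 2 lower, and the median of 0.17 turned to -0.05. ERCC1 was at 64.1, 55.8 and 47.5 CPM and -0.41.

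Of 14 tubulins and microtubule regulators, the group to which the taxane target belongs, 1 was higher and 2 lower, against 18.5% and 5.23% of all genes. Their median was -0.14, with TUBA1C at -0.77. Drug efflux transporters had a median of -0.24 (0.03 over all kept cells), with 1 of 5 lower and 0 higher. TUBB3, an isotype often discussed in taxane resistance, was at 1.35, 1.65 and 1.34 CPM, with an interval of -0.54 to 0.61. The efflux pump ABCB1 was at 0.989, 2.94 and 3.35 CPM, with 1.758 [1.497 to 2.025] over all kept cells and 0.75 [0.31 to 1.198] in matched cells. It was detected in 0.686% and 1.78% of thinned cells. The FaDu share lay below the highest immune marker share given above and the resistant share beside it. That marker share is not a measure of free RNA, so whether ABCB1 rose above background was not tested. The FaDu shares of HIST1H2AM, ARRDC4, RAD50 and HIST1H2BF (1.37%) also lay below the FaDu marker share. DHRS2, at 1.58% of resistant cells, lay below the resistant marker share. Whether these levels rose above background was not tested either, and the ratios of these genes are uncertain in size. Other named genes found in as few cells share this limit. Bufadienolides bind the sodium pump, of which only beta and FXYD subunits were listed here, so these values do not describe its other subunits. ATP1B1 was at 64.0, 66.7 and 72.01 CPM and 0.05 (-0.17 with TMM scaling) and FXYD3 at -0.69. Of 21 p53 targets 4 were higher and 3 lower, against 18.5% and 5.23% of all genes. The share higher was thus near that of all genes. With TMM scaling 1 was higher and 6 lower, and the median of 0.07 turned to -0.15. BTG2 was at 0.89, BBC3 at -0.89 and CDKN1A at 282, 319 and 315 CPM and 0.07 (-0.15 with TMM scaling). In the BCL2 family and caspases, BCL2A1 (1.36) and PMAIP1 (0.97) were higher and BAD (-0.72) and CASP9 (-0.73) lower.

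Differences in detection share at equal depth named a partly different set of genes. Of 7911 genes 61 were detected in at least 20 percentage points more of the resistant cells (0.771%) and 25 in at least 20 points fewer (0.316%), and the median difference was 2.04 points. Besides TXNIP, HIST1H1D, PRKDC, JUN and ATAD2, the 10 largest gains were in the phosphatase PTPN11 (21.7% to 50.4%), the kinases PKN2 (24.6% to 53.4%) and RIOK3 (24.0% to 51.0%), the synaptic gene RIMS2 (18.4% to 49.9%) and the histone deacetylase HDAC9 (28.3% to 55.3%). PTPN11 overlaps RPL6 on the opposite strand. The 10 largest losses included ATP5F1D, BST2, IFITM1 and KRT19 (82.5% to 57.0%), with CCDC85B (94.9% to 71.7%), the caveolin CAV2 (72.9% to 48.9%), SERINC2 (62.5% to 39.2%), METRN (48.3% to 25.2%), HCFC1R1 (54.4% to 31.3%) and DNPH1 (74.2% to 52.0%). In the matched cells 38 genes gained and 29 lost at least 20 points. There HDAC9 was detected in 40.3% and 48.7% of cells and RIMS2 in 25.7% and 46.2%, smaller gaps than over all kept cells.

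**Figure D4:**
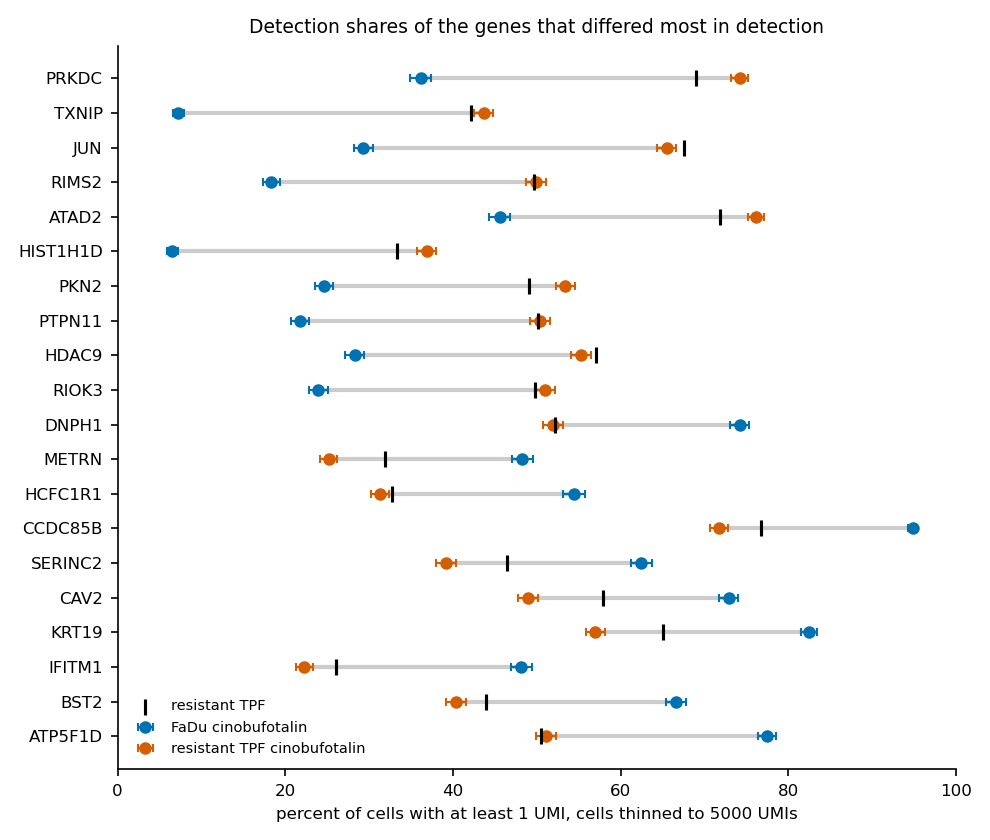
Percent of cells with at least 1 UMI after thinning to 5000 UMIs, for the 10 genes with the largest gain and the 10 with the largest loss, with 95% exact intervals for counting error and a tick for the resistant TPF library. TXNIP goes from 7.26% to 43.7% and KRT19 from 82.5% to 57.0%, and the resistant TPF tick lies on the side of the resistant TPF cinobufotalin library for both.

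Long genes differed most over all kept cells and less after matching. Among protein-coding genes in 4 equal classes of gene span, with median spans of 6.5, 21.9, 49.5 and 136 kb, the share at least 2-fold higher over all kept cells was 2.87%, 4.56%, 12.4% and 29.8%. In matched cells it was 2.21%, 2.16%, 3.90% and 4.11%, a much shallower gradient in this share. The median log2 ratio still rose with span there, from -0.013 in the shortest class to 0.349 in the longest. Over all kept cells these medians were -0.030 and 0.758. HDAC9, which spans 915.5 kb on chromosome 7, was at 72.7, 247 and 239 CPM and 1.72 over all kept cells but at 0.59 in matched cells. Within the FaDu library it was at 37.4 CPM in cells with at most 0.05% MALAT1 and 170 CPM in cells at 1% to 2%, and within the resistant library at 34.3 and 345 CPM. RIMS2, of 755 kb, was at 2.08 and 1.05, SLIT2, a guidance ligand, at 2.32 and 1.16, and the nuclear RNA NEAT1 at 1.07 and 0.07 (-0.15 with TMM scaling). Zinc finger ZNF genes had 45 of 160 higher and 2 lower in matched cells, against 18.5% and 5.23% of all genes. Their medians were 0.59 and 0.31. The part of nuclear RNA in the differences that remained after matching was not tested.

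**Figure D5:**
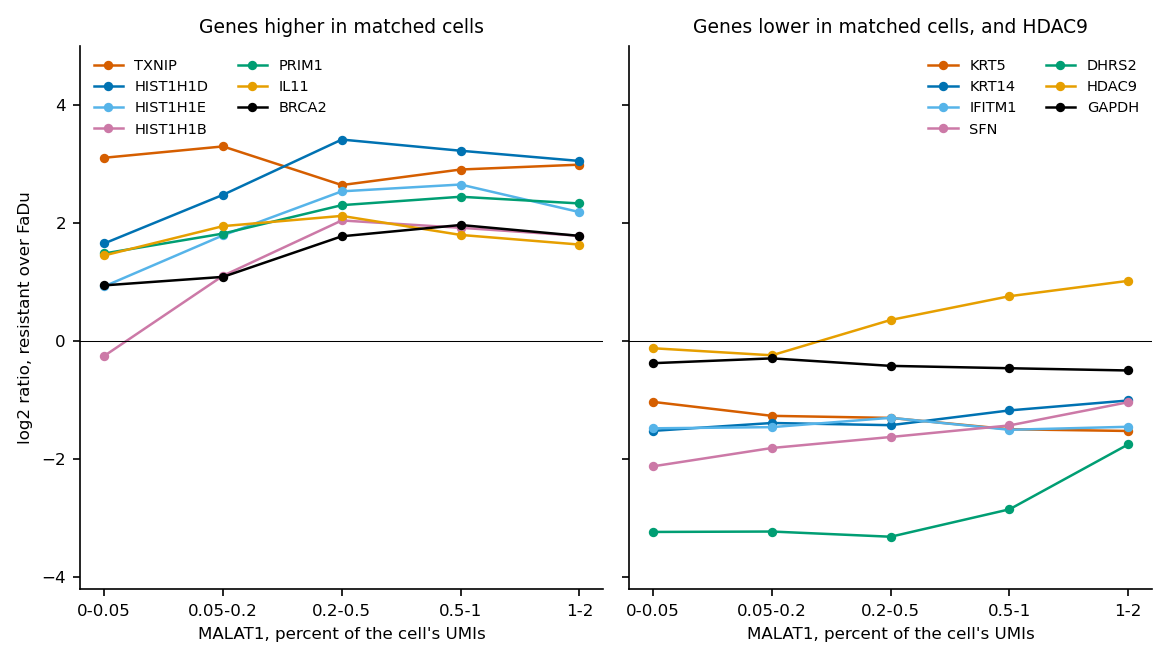
Log2 ratio (resistant TPF cinobufotalin over FaDu cinobufotalin) of 14 genes in 5 classes of cells by MALAT1 share, from 0% to 2% of UMIs. TXNIP stays between 2.64 and 3.29 and KRT5 between -1.52 and -1.03 in all 5, while HDAC9 runs from -0.24 to 1.02 and HIST1H1B from -0.25 to 2.04.

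Across the 5 MALAT1 classes some differences were steady and others were not. TXNIP lay between 2.64 and 3.29 in the 5 classes, ARRDC4 between 1.93 and 2.65, IL11 between 1.45 and 2.12, IFITM1 between -1.50 and -1.30 and KRT5 between -1.52 and -1.03. HIST1H1D ran from 1.65 to 3.41, HIST1H1E from 0.92 to 2.65 and BRCA2 from 0.94 to 1.96. HIST1H1B was at 11.3 CPM in FaDu and 9.503 CPM in resistant cells with at most 0.05% MALAT1, a ratio of -0.25, and at 29.5 and 101 CPM in cells at 1% to 2%. The class with the lowest MALAT1 held 1158 FaDu and 233 resistant cells, and there 264 genes passed 2-fold upward and 380 downward, with the median gene at -0.00085. In the classes above it, 259, 335, 425 and 419 genes were higher and 168, 88, 68 and 46 lower. S100A8, an inflammatory S100 protein, was at 132 CPM in those 233 resistant cells and at 1.02 to 1.55 CPM in the resistant cells of the other 4 classes, so its log2 ratio of 1.89 in matched cells rested on that class.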

How the data were processed

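Single cells were captured with the 10x Genomics 3′ kit, version 3.1, and the authors deposited 1 matrix of UMI counts per gene and cell for each of 3 libraries. Per the submitters' processing notes, the counts were made with Cell Ranger 7.0 on hg38. The sources used here do not give the annotation, intron and strand settings, and all 58735 feature IDs matched GENCODE 29, from which gene positions and overlaps were taken. No count was changed before the steps below, free RNA was not corrected and doublets were not removed.

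Counts were added up over the kept cells of a library and divided by their total (CPM, per 1e+06 UMIs). Genes needed a mean of 10 CPM over the 2 libraries compared (5 CPM for lists). Zero counts were not replaced, and log2 ratios carry 95% Clopper-Pearson intervals, which cover counting error only. Cells were matched on MALAT1 by random draws with a fixed seed, and detection shares, variance-to-mean ratios and percentiles were taken after thinning each cell to 5000 UMIs. With 1 library per group no test was run. TMM factors came from edgeR 4.0.16 in R 4.3.3, and the remaining steps used Python 3.11.15 with numpy 2.4.6, scipy 1.17.1 and pandas 2.3.3. The procedure was checked on simulated counts with known ratios.

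Genes named are the 12 highest and 12 lowest ratios in matched cells with a mean of 20 CPM, the 10 largest detection differences in each direction (mitochondrial, ribosomal protein and clone-named genes left out), the 2 highest and 2 lowest of each list, and a set always shown. Other list members were named after their values were seen, and some members that enter the counts are not reported here by name. The comparison, lists and this set were chosen with earlier results of these data known, and the CACGAG search was added after the data were seen.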

Additional observations from a re-analysis of the deposited data

How the results depend on the processing

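With 1 library per group, no library could be left out. No paired analysis was possible because each group has 1 library. The counts of genes at least 2-fold higher and lower depended most on scaling and on the level required. Against 1002 higher and 64 lower over all kept cells, TMM scaling gave 164 and 514, centring on the median gene 401 and 199 (66.83% higher), a mean of 1 CPM 2538 and 125, a mean of 20 CPM 576 higher, and no filter on low genes 8529 and 958. Against 273 and 79 in matched cells, TMM scaling gave 112 and 198 and a mean of 1 CPM 840 and 216. Cells with at most 0.05% MALAT1 gave 380 lower, those at 0.05% to 0.2% 168 lower, those at 0.5% to 1% 425 higher, and those at 1% to 2% 419 higher and 46 lower. Against 61 genes detected at least 20 points more often and 25 less often, thinning to 10000 UMIs gave 237 more often, no thinning 374 less often, matched cells 38 more often, and a difference of 10 points 686 and 180. Matching on MALAT1 and UMIs together gave 212 higher and 102 lower, and 4 further random draws gave 253 to 273 higher and 79 to 83 lower, all within 1.5 times of the value reported. Of the list medians recomputed 667 stayed within 0.1 of the value reported and 256 moved further with the same direction or from a value under 1.5-fold, and of the ratios of named genes 2458 stayed inside the counting interval and 1940 did not. Among genes at 2-fold and list medians at 1.5-fold or more, signs turned in 3 cases: the linker histone median (1.72) and HIST1H1B (1.72) were at -0.25 in cells with at most 0.05% MALAT1, and S100A8 (1.89) was at -0.34 in cells at 1% to 2%. The cause was not tested. Depth limits genes below the levels required, such as ABCB1 and TUBB3.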

Other observations

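Several genes outside the groups of the report differed by 2-fold or more in matched cells. MORC4, a member of the MORC ATPase family, was at 8.18 CPM in the FaDu cinobufotalin library, 44.7 CPM in the resistant TPF library and 41.4 CPM in the resistant TPF cinobufotalin library, with a log2 ratio of 1.94 [1.80 to 2.08] and a range of 1.56 to 2.23 over the 5 MALAT1 classes. SRP14-AS1, a transcript antisense to SRP14, was at 12.04, 32.4 and 37.6 CPM and 1.88, but the sources used here do not give whether counting used strand. ASB2, a substrate receptor of a cullin ubiquitin ligase, was at 59.4, 23.4 and 22.5 CPM and -1.49. The long noncoding RNAs GAS5 and UCA1 went opposite ways, at 1.26 and -1.11, and GAS5 was at 89.5, 233 and 241 CPM. IGFL1 and IGFL2-AS1 were at -0.74 and -1.17.

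Of 21 measured actomyosin genes and YAP targets, 1 was at least 1.5-fold higher and 5 were lower in matched cells. The shares of all genes were 18.5% and 5.23%, and with TMM scaling the list had 0 higher and 7 lower. The cytoplasmic actins ACTG1 and ACTB were at -0.94 and -0.55 and the myosin light chain MYL9 at -0.90. In the guidance list SEMA3A (0.81) and the receptor ROBO1 (0.98) were higher along with SLIT2, and EFNA1 (-0.80) was lower. None of 9 measured EGFR family genes and ligands was 1.5-fold higher or lower, against 18.5% and 5.23% of all genes. Their median of 0.10 turned to -0.11 with TMM scaling. None of 5 metallothioneins was 1.5-fold higher or lower either, against the same shares of all genes, with MT1E at -0.47 and MT1X at 0.24.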
